A study of Mus musculus with 4 samples.

Results

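The extracellular matrix outside its collagens is built from glycoproteins and proteoglycans, and 45 genes for such proteins were followed in N31 neural progenitor cells (NPCs). The rule that selects them uses gene names and no measured value, although the list was drawn up with earlier results of these data known. It is a list of non-collagen adhesive glycoproteins, laminins, nidogens, elastic fibre proteins, fibulins and proteoglycans, and all 45 genes were among the 21862 gene symbols listed once. N31 NPCs are a mouse line obtained by differentiating induced pluripotent stem cells that carry Dox-inducible reprogramming factors, and both populations compared here have that origin. Control NPCs and NPCs expressing shSrf#1, a short hairpin RNA against the transcription factor Srf, were cultured without EGF and bFGF on type I collagen-coated matrices of 0.5 kPa or 12 kPa. The vector carried by the control cells was not given in the sources used here. There was 1 library for each of the 4 conditions, which leaves the differences below without replicates and without a test. The values are FPKM, the reads of a gene scaled to transcript length and to the number of mapped reads, and levels can be compared between genes because they are per length.

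Fibronectin, tenascins and thrombospondins are glycoproteins that cells bind through integrins and other receptors. Laminins are heterotrimers of an alpha, a beta and a gamma chain that polymerise into basement membranes, where nidogens and the proteoglycans perlecan and agrin join them. Proteoglycans carry glycosaminoglycan chains that hold water and bind growth factors, and in neural tissue tenascin-C, laminins and lecticans surround progenitor cells and growing axons.

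Srf, the target of the short hairpin RNA, had FPKM of 34.4 and 35.6 in control at 0.5 and 12 kPa, against 16.2 and 17.4 with the knockdown. The depth, estimated from whole-read steps among weakly expressed genes, was between 24100000 and 29100000 reads in the control libraries and between 45100000 and 62300000 in the knockdown libraries. For a 2000-nucleotide transcript, 3 reads then equal an FPKM of 0.0241 in the deepest library and 0.0622 in the shallowest. Of 10 neural progenitor markers, 5 had an FPKM above 2 in all 4 libraries (Sox2, Pax6, Nes, Slc1a3 and Vim), and Sox1 and Hes5 were listed at 0 in all 4. The list summed to 1784 and 1564 in control against 2437 and 2456 in Srf-knockdown NPCs, most of it Vim, and its members differed in direction. Past 2-fold at both stiffnesses, Sox2 was higher (4.29 and 5.49 in control, 19.1 and 20.4 in Srf-knockdown NPCs) while Nes (51.6 and 36.1 against 16.4 and 15.5) and Slc1a3 (27.7 and 36.7 against 9.99 and 13.2) were lower. Of 9 mesenchymal markers, all 9 were above 2 in 3 libraries and 8 in Srf-knockdown NPCs at 12 kPa. The mesenchymal list summed to FPKM of 3883 and 3364 in control and of 3928 and 3713 in Srf-knockdown NPCs, with Col3a1 as its most abundant gene. The neuron list summed to 56.7 and 60.2 in control against 122.8 and 117.7 in Srf-knockdown NPCs, and the epithelial list to 45.9 and 32.1 against 81.5 and 69.2. Above 2 in all libraries were 4 of 6 neuron markers (Rbfox3 was listed at 0 in all 4) and 3 of 6 epithelial markers (Cdh1 was at most 0.205). Stmn2 accounted for most of the higher neuron sum (19.1 and 18.7 against 64.6 and 61.3) and Krt8 for most of the higher epithelial sum (log2 ratios to control of 1.36 and 1.58), whereas Krt18 was at 20.2 and 14.3 against 19.9 and 18.8. The astrocyte list, with 2 of 6 above 2, summed to 403.6 and 341.4 in control against 194.5 and 208.9, nearly all of it Gja1. In bulk samples, fewer cells of a type and less RNA per cell cannot be told apart, and the part of these markers in the differences below was not tested.

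Most matrix glycoprotein and proteoglycan genes were well expressed. An FPKM above 2 in all 4 libraries, the minimum for computing a ratio, was reached by 34 of the 45 genes and by 10489 of all 21862 genes. The median FPKM of these 34 genes was 58.0 and 61.4 in control NPCs at 0.5 and 12 kPa and 46.9 and 55.0 in Srf-knockdown NPCs, against 21.9 to 22.1 over all genes above the minimum. The 45 genes together held between 0.886% and 0.994% of the summed FPKM of a library. Spp1, Sparc, Bgn and Fn1 alone held 64.6% and 63.5% of the members' sum in control and 79.2% and 76.1% in Srf-knockdown NPCs. Without these 4 genes the sum was 2076 and 2072 in control and 1425 and 1539 in Srf-knockdown NPCs, so the sum of the other 41 genes was lower in both knockdown libraries. Members at or below 2 in every library were Vtn, Lama1, Lama3, Lamb3, Eln, Acan, Bcan, Ncan and Gpc6, and Lum and Gpc3 were above 2 in some libraries only.

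**Figure D1:**
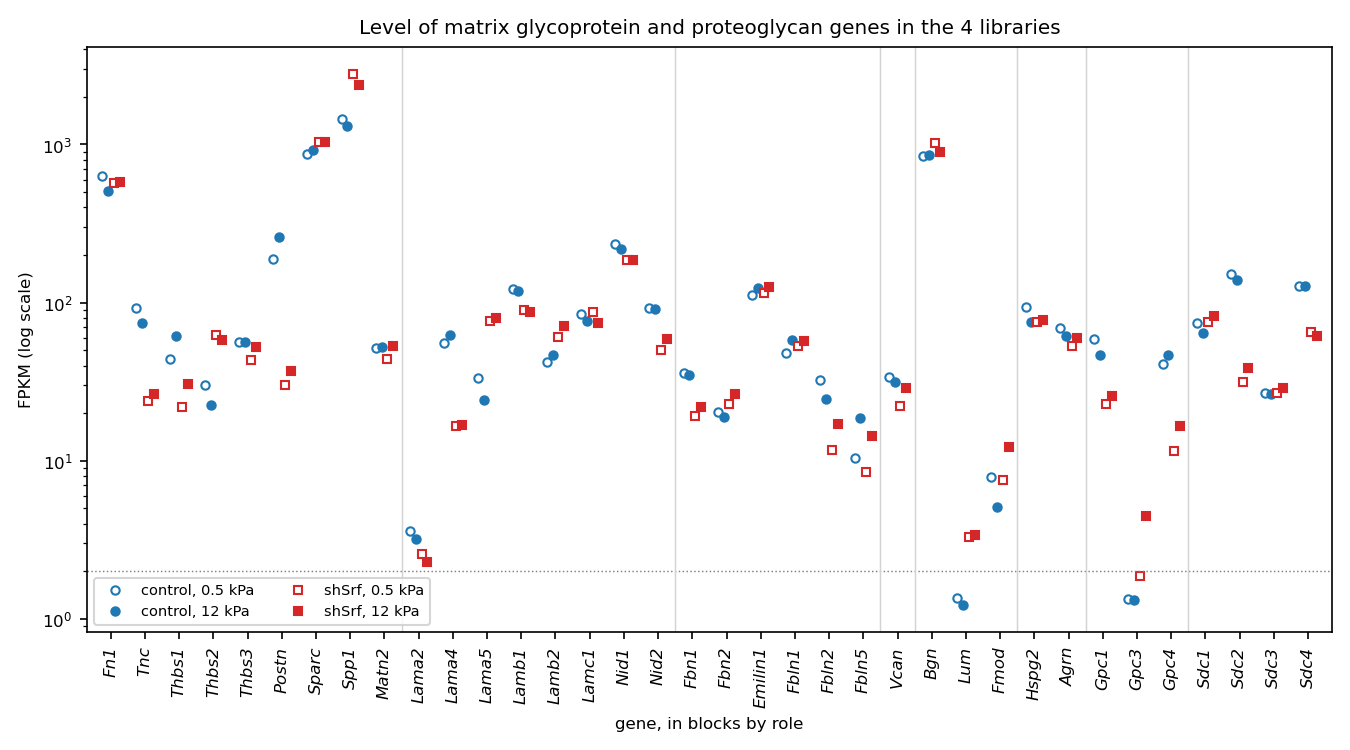
FPKM of each matrix glycoprotein and proteoglycan gene above 2 in at least 1 library, on a log axis, with 1 point for each of the 4 libraries and the genes grouped by role. The points of most genes lie close together, while those of Postn, Tnc, Lama4, Sdc2 and Gpc4 separate into higher control and lower Srf-knockdown libraries and those of Lama5 and Thbs2 into the opposite order.

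Srf knockdown was compared with control at each stiffness, and the ratios at 0.5 and at 12 kPa share no library. Both knockdown libraries carry the same hairpin, shSrf#1, so loss of Srf and other effects of that hairpin cannot be told apart. Lower by more than 2-fold at both stiffnesses were 6 of the 34 genes (17.6%), namely Tnc, Thbs1, Postn, Lama4, Gpc4 and Sdc2, against 1.71% of all genes. Higher by more than 2-fold at both were Thbs2 and Lama5 (5.88%), against 1.74% of all genes. The median log2 ratio over the 34 genes was -0.32 at 0.5 kPa and -0.07 at 12 kPa, and over all genes it was 0.01 at each stiffness. The member median at 12 kPa was -0.28 with ratios centred within bins of transcript GC content, and that at 0.5 kPa was -0.05 with a pseudocount of 1 and no minimum, over all 45 genes. Counting error, the only error that can be estimated from 1 library, was at most 0.119 on the log2 scale for these 34 genes and above 0.1 only for Fbln2 and Fmod, and it does not cover culture or library preparation. The error of Fbln2 depends on the length used, 477 nucleotides, the median of 5 annotated transcripts, and a longer length would give more reads and a smaller error.

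**Figure D2:**
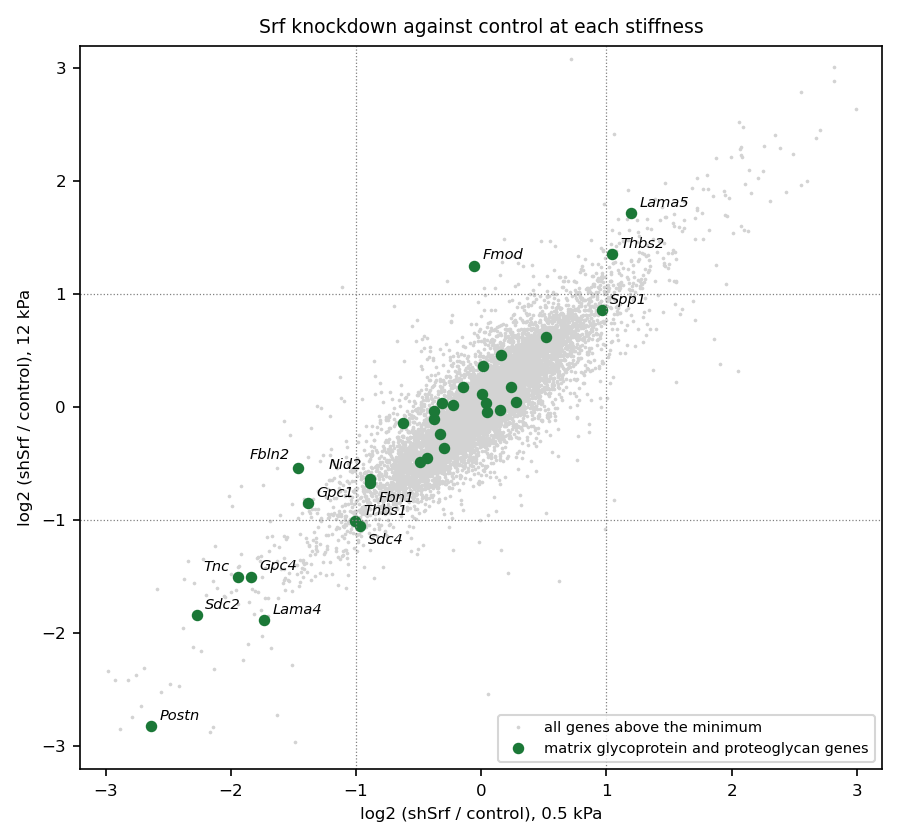
Log2 ratio of knockdown to control NPCs at 12 kPa against that at 0.5 kPa, for the 34 matrix genes in green and all 10489 genes above the minimum in grey, with dotted lines at 2-fold and 7 grey genes outside the axes. Postn, Sdc2, Tnc, Gpc4, Lama4 and Thbs1 lie beyond the lines on the lower side on both axes, with Sdc4 just inside them at 0.5 kPa, and Lama5 and Thbs2 beyond them on the upper side.

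Among the adhesive glycoproteins, Postn and Tnc had the largest ratios. Postn, encoding periostin, a matricellular protein of collagen-rich tissue (chromosome 3 of mm10, 54359267 to 54391041), had FPKM of 187.9 and 259.4 in control NPCs at 0.5 and 12 kPa and of 30.2 and 36.8 in Srf-knockdown NPCs. It was 6.22-fold lower at 0.5 kPa and 7.05-fold lower at 12 kPa with the knockdown (log2 ratios of -2.64 and -2.82), the largest differences among the 34 genes. Tnc, encoding tenascin-C, a glycoprotein of stem cell niches and healing tissue (chromosome 4, 63959785 to 64047015), had FPKM of 92.4 and 74.7 in control and 24.0 and 26.4 in Srf-knockdown NPCs. It was 3.84-fold lower at 0.5 kPa and 2.83-fold lower at 12 kPa.

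The thrombospondins differed in direction. Thbs1 (chromosome 2, 118111876 to 118127133), whose product binds CD47 and can activate latent TGF-beta, had FPKM of 43.8 and 61.4 in control and 21.8 and 30.6 in Srf-knockdown NPCs. It was 2.01-fold lower at each stiffness, just beyond the threshold, and a pseudocount of 1 brought the log2 ratios to -0.97 and -0.98, inside it. Thbs2 (chromosome 17, 14665500 to 14694262), a close paralog, had FPKM of 30.1 and 22.6 in control and 62.2 and 58.0 in Srf-knockdown NPCs, 2.06-fold and 2.56-fold higher. Control NPCs thus held more Thbs1 than Thbs2 at both stiffnesses and Srf-knockdown NPCs more Thbs2 than Thbs1. Thbs3, a pentameric relative, had FPKM of 56.7 and 56.0 in control and 43.6 and 52.2 in Srf-knockdown NPCs.

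The ratios of the most abundant adhesive genes stayed within 2-fold as reported. Spp1, encoding osteopontin, an integrin-binding phosphoprotein, had FPKM of 1442 and 1312 in control and 2806 and 2384 in Srf-knockdown NPCs, the highest level of any member in every library. Its ratios, 1.95-fold at 0.5 kPa and 1.82-fold at 12 kPa, stayed just inside 2-fold. Sparc, encoding osteonectin, a collagen-binding protein, ranged from 875.2 in control NPCs at 0.5 kPa to 1038 in Srf-knockdown NPCs at 12 kPa, with log2 ratios to control of 0.24 and 0.18. Fn1, encoding fibronectin, had FPKM of 630.6 and 507.7 in control and 570.1 and 575.3 in Srf-knockdown NPCs, so the knockdown values lay between the control values. The populations also overlapped for Matn2, encoding the adaptor protein matrilin-2, at 51.5 and 52.3 in control and 44.0 and 53.0 in Srf-knockdown NPCs. Vtn, encoding vitronectin, was listed at 0 in 3 libraries and at 0.0792 in Srf-knockdown NPCs at 12 kPa.

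Laminin alpha chains, which carry the binding sites for cell receptors, differed in opposite directions between the populations. Lama4 (chromosome 10, 38965515 to 39110188) had FPKM of 55.3 and 62.2 in control and 16.6 and 16.9 in Srf-knockdown NPCs, 3.32-fold and 3.69-fold lower. Lama5 (chromosome 2, 180176373 to 180225904) had FPKM of 33.5 and 24.2 in control and 77.0 and 79.4 in Srf-knockdown NPCs, 2.30-fold and 3.28-fold higher. Centring the ratios within bins of transcript GC content brought the difference of Lama5 at 0.5 kPa to a log2 ratio of 0.97, inside 2-fold. The ratio of Lama5 to Lama4 was 0.607 and 0.389 in control and 4.63 and 4.71 in Srf-knockdown NPCs. The summed FPKM of the 5 alpha chains differed little, at 92.5 and 89.7 in control and 96.8 and 99.3 in Srf-knockdown NPCs. Lama4 made up 59.7% and 69.3% of it in control and 17.2% and 17.0% in Srf-knockdown NPCs, and Lama5 36.2% and 27.0% against 79.5% and 80.0%. Lama2, the alpha chain of muscle and peripheral nerve laminins, was weakly expressed, with FPKM of 3.62 and 3.19 in control and 2.58 and 2.28 in Srf-knockdown NPCs.

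**Figure D3:**
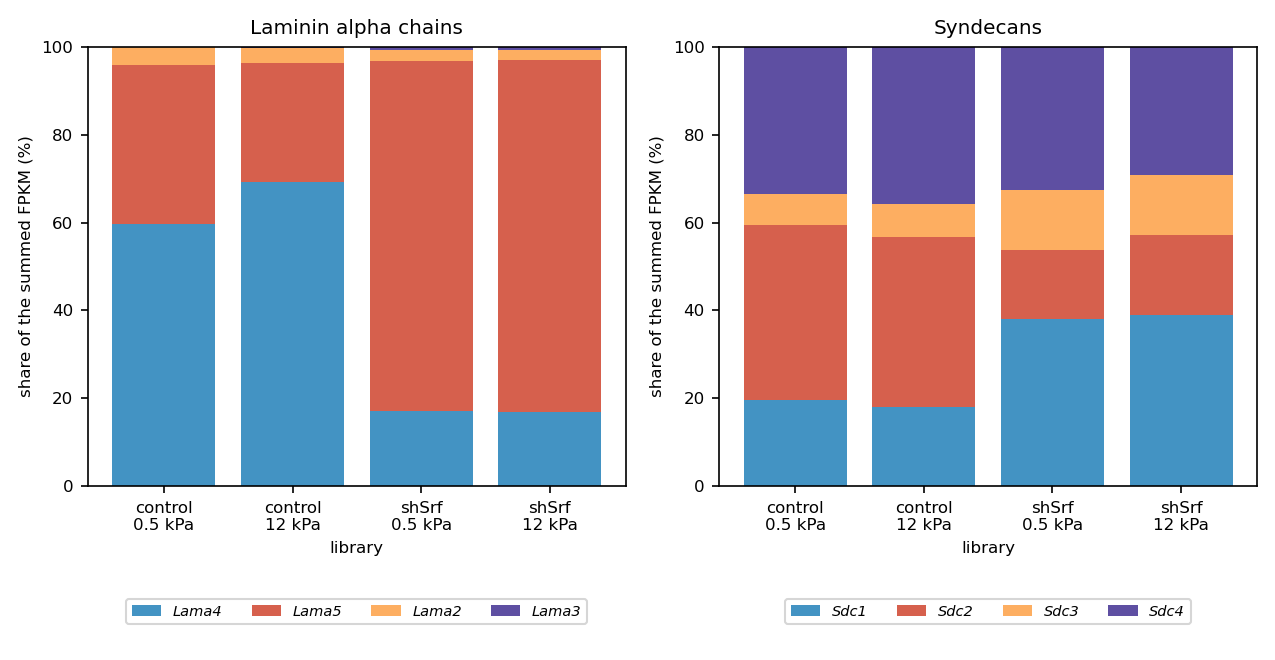
Share of the summed FPKM of the laminin alpha chains (left) and of the syndecans (right) held by each gene in each library, in percent, with Lama1 left out as it held at most 0.0173%. Lama4 is the largest alpha chain segment in both control libraries and Lama5 in both Srf-knockdown libraries, and the Sdc2 segment is smaller and the Sdc1 segment larger in the knockdown libraries.

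Of the partner chains, Lamb1 had FPKM of 121.6 and 119.1 in control and 89.8 and 87.5 in Srf-knockdown NPCs, with log2 ratios of -0.44 and -0.45. Lamb2, the beta chain of synaptic and kidney laminins, had FPKM of 42.3 and 46.6 in control and 60.7 and 71.5 in Srf-knockdown NPCs, with log2 ratios of 0.52 and 0.62. Lamb2 therefore made up 25.8% and 28.1% of the beta chain FPKM in control and 40.2% and 44.8% in Srf-knockdown NPCs. Lamc1, the gamma chain of most laminins, had FPKM of 85.0 and 76.8 in control and 87.7 and 74.7 in Srf-knockdown NPCs, within 0.05 of control on the log2 scale at each stiffness. Lama3 and Lamb3, chains of epithelial laminins, were below the minimum in all libraries. Lama3 had FPKM of 0.103 and 0.109 in control and 0.589 and 0.723 in Srf-knockdown NPCs, and Lamb3 had 0.108 and 0.130 in control and 0.563 and 0.582 in Srf-knockdown NPCs. These rest on about 16.6 and 14.5 estimated reads of Lama3 in the control libraries and 12.6 in each for Lamb3, and no ratio is given. Lama1 was at most 0.0172.

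The nidogens, which link the laminin and collagen IV networks, were lower in Srf-knockdown NPCs without reaching 2-fold. Nid1 had FPKM of 233.2 and 217.4 in control and 185.2 and 184.9 in Srf-knockdown NPCs. Nid2 had FPKM of 92.1 and 91.3 in control and 49.9 and 58.8 in Srf-knockdown NPCs, with log2 ratios of -0.88 and -0.63.

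The promoters of the members were searched for the CArG box, the element to which Srf binds, and for CATTCC, an element of the TEAD factors that work with Yap, on both strands from 250 bases before to 50 after the start in RefSeq on GRCm38.p6. A promoter was held for 31 of the 45 members. A CArG box was found in 1 of them, Lama2, against 1.51% of the 8257 genes above the minimum with a promoter and 1.63% of the 32851 promoters. CATTCC was found in 5 (Vtn, Lamb3, Nid1, Acan and Gpc4) and in 14.7% of all promoters. Members were counted by gene, some with more than 1 promoter, so the shares of promoters are in another unit. Of the 8 members past 2-fold at both stiffnesses, Tnc, Postn, Thbs2, Gpc4 and Lama5 had a promoter in this table, and 0 of these 5 held a CArG box. Only the exact form CCWWWWWWGG, with W for A or T, was searched, so imperfect or more distant sites would be missed. With matches in 1.63% of all promoters, 0 of 5 is a likely count in any case. It does not show that these genes lack Srf sites. The 250 bases before the start are printed for Lama2, the sole member with a CArG box, for Gpc4, the sole one of these 5 with CATTCC, and for Lama5, the one of these 5 with the highest ratio to control, with no match. These 3 were chosen after the values were seen, and capitals mark the matching element, whose first base lies 39 bases before the start in Lama2 and 131 in Gpc4. The windows are chr10:27616943-27617192, chrX:52164924-52165173 and chr2:180225860-180226109, all on the minus strand. The start is that of the promoter annotation and not always the outermost start of the gene. The Lama2 window, with its CArG box, lies almost wholly inside the annotated gene, which starts at 27617191 on this strand. The Lama5 window partly overlaps its gene, which starts at 180225904.
Lama2: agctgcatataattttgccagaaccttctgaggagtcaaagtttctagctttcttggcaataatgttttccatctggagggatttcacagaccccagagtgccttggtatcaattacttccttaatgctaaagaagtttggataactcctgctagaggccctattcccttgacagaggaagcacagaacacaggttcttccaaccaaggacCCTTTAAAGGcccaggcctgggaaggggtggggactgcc
Gpc4: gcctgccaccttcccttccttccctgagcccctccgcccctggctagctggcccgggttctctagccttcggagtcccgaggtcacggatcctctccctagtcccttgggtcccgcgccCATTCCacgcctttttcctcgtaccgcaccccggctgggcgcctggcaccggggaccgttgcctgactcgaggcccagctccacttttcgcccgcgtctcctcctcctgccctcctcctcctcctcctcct
Lama5: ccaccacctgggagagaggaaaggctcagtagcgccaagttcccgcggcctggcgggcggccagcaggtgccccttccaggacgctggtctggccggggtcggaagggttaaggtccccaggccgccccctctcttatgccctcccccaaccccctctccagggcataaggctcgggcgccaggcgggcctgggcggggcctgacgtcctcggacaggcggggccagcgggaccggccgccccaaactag
A match describes letters in this window and not a bound site.

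None of the 6 elastic fibre and fibulin genes above the minimum passed 2-fold at both stiffnesses. Fbn1, encoding the microfibril protein fibrillin-1, had FPKM of 35.6 and 35.0 in control and 19.3 and 22.0 in Srf-knockdown NPCs, with log2 ratios of -0.89 and -0.67. Its paralog Fbn2 had 20.4 and 19.0 in control and 22.8 and 26.3 in Srf-knockdown NPCs, with log2 ratios of 0.16 and 0.47. Fbln2, encoding fibulin-2, a linker of elastic fibres and basement membranes, had 32.2 and 24.6 in control and 11.7 and 17.0 in Srf-knockdown NPCs, a log2 ratio of -1.46 at 0.5 kPa but -0.53 at 12 kPa. The other fibulins lay closer to control. Fbln1 had FPKM of 48.2 and 57.9 in control and 53.4 and 57.1 in Srf-knockdown NPCs, and Fbln5, needed for elastic fibre assembly, had 10.5 and 18.5 against 8.52 and 14.4. Emilin1, encoding a glycoprotein at the elastin and microfibril interface, had 111.9 and 122.9 in control and 115.0 and 125.8 in Srf-knockdown NPCs. Eln, encoding elastin itself, was between 0.358 and 1.23.

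Of the lecticans, the hyaluronan-binding chondroitin sulphate proteoglycans, Vcan (versican) was the one expressed. It had FPKM of 34.0 and 31.6 in control and 22.1 and 28.7 in Srf-knockdown NPCs, with log2 ratios of -0.62 and -0.14. Acan (aggrecan) was at most 0.00928, Bcan (brevican) at most 0.113 and Ncan (neurocan) at most 0.0589, although the last 2 are characteristic of neural tissue.

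The small leucine-rich proteoglycans bind collagen fibrils and were dominated by Bgn (biglycan), with FPKM of 844.6 and 859.8 in control and 1026 and 890.2 in Srf-knockdown NPCs. Fmod (fibromodulin) had 7.86 and 5.11 in control and 7.55 and 12.2 in Srf-knockdown NPCs, where the log2 ratio was -0.06 on the softer matrix and 1.25 on the stiffer one. Lum (lumican) was above the minimum only in the knockdown libraries, with 3.28 and 3.38 against 1.36 and 1.22 in control. Both basement membrane heparan sulphate proteoglycans were lower in Srf-knockdown NPCs at 0.5 kPa, inside 2-fold, and near control at 12 kPa. Hspg2 (perlecan) was at 93.4 and 74.9 in control and 75.2 and 77.1 in Srf-knockdown NPCs, with log2 ratios of -0.31 and 0.04. Agrn (agrin), which clusters acetylcholine receptors at the synapse, was at 69.2 and 61.3 against 53.3 and 59.8, with log2 ratios of -0.38 and -0.04. With centring within bins of transcript GC content, the ratios were -0.52 and -0.34 for Hspg2 and -0.57 and -0.32 for Agrn.

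Cell-surface heparan sulphate proteoglycans were lower in sum in Srf-knockdown NPCs. The glypicans, anchored by a lipid tail, summed to FPKM of 102.6 and 95.8 in control and 36.9 and 47.9 in Srf-knockdown NPCs. Gpc4 (chromosome X, 52051007 to 52164923) had FPKM of 41.0 and 46.7 in control and 11.5 and 16.6 in Srf-knockdown NPCs, 3.57-fold and 2.82-fold lower. Gpc1 had 59.2 and 46.4 in control and 22.8 and 25.8 in Srf-knockdown NPCs, with log2 ratios of -1.38 and -0.85, the second inside 2-fold. Gpc3 was weakly expressed and higher in the knockdown libraries, at 1.33 and 1.32 in control and 1.86 and 4.49 in Srf-knockdown NPCs, and Gpc6 was at most 1.36.

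The syndecans, heparan sulphate proteoglycans that span the membrane, summed to FPKM of 379.4 and 356.2 in control and 198.7 and 211.6 in Srf-knockdown NPCs. Sdc2 (chromosome 15, 32920723 to 33034721) had FPKM of 150.9 and 138.4 in control and 31.3 and 38.7 in Srf-knockdown NPCs, 4.82-fold and 3.58-fold lower. Sdc4, a focal adhesion syndecan, had 126.8 and 127.4 in control and 64.8 and 61.7 in Srf-knockdown NPCs, with log2 ratios of -0.97 and -1.05, so that it missed 2-fold at 0.5 kPa. Sdc1, the main epithelial syndecan, was not lower in either knockdown library, at 74.8 and 63.9 in control and 75.6 and 82.5 in Srf-knockdown NPCs. Sdc3, the syndecan of the nervous system, was at 26.9 and 26.6 against 27.0 and 28.8. Sdc2 held 39.8% and 38.8% of the syndecan FPKM in control and 15.8% and 18.3% in Srf-knockdown NPCs, and Sdc1 held 19.7% and 17.9% against 38.0% and 39.0%.

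The stiffness of the matrix was compared within each population, with 1.1-fold as the threshold and no library shared between the 2 ratios. In control NPCs, 12 of the 34 genes (35.3%) were lower at 12 than at 0.5 kPa, against 16.9% of all genes, and 7 (20.6%) were higher, against 17.9% of all genes. Fmod (log2 ratio of -0.62), Lama5 (-0.47), Thbs2 (-0.41) and Fbln2 (-0.39) were the most reduced. Gpc1 (-0.35), Hspg2 (-0.32), Fn1 (-0.31), Tnc (-0.31) and Sdc1 (-0.23) followed, and Agrn (-0.18), Lama2 (-0.18) and Lamc1 (-0.15) were nearest to the threshold. Both basement membrane proteoglycans were thus lower on the 12 kPa matrix. Higher on it were Fbln5 (0.82), Thbs1 (0.49), Postn (0.47), Fbln1 (0.26), Gpc4 (0.19), Lama4 (0.17) and Lamb2 (0.14). Emilin1 (0.135) fell just short of 1.1-fold, which is 0.1375 on this scale. The ratios of Lama4 and Lama5 went in opposite directions here, and the median over the 34 genes was -0.06 against 0.00 over all genes.

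In Srf-knockdown NPCs the balance was the other way. Higher at 12 than at 0.5 kPa were 16 of the 34 genes (47.1%), against 17.6% of all genes, and 4 (11.8%) were lower, against 13.0% of all genes. The most raised were Fbln5 (log2 ratio of 0.76), Fmod (0.69), Fbln2 (0.54), Gpc4 (0.53), Thbs1 (0.49) and Vcan (0.38). Sdc2 (0.30), Postn (0.29), Matn2 (0.27), Thbs3 (0.26), Nid2 (0.24), Lamb2 (0.24) and Fbn2 (0.21) came next, followed by Fbn1 (0.19), Gpc1 (0.18) and Agrn (0.16). Spp1 (-0.23), Lamc1 (-0.23), Bgn (-0.20) and Lama2 (-0.18) were lower. The median over the 34 genes was 0.13 against 0.01 over all genes. With ratios centred within bins of transcript GC content the member median was 0.06, and 14 members were higher, against 14.5% of all genes. At 1.5-fold, 1 member was lower and 1 higher in control, against 0.963% and 0.858% of all genes. In Srf-knockdown NPCs 0 were lower and 2 higher at 1.5-fold, against 0.324% and 0.458%. Gpc3 was outside these counts, since it was above the minimum in 1 library only, Srf-knockdown NPCs at 12 kPa.

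The stiffness ratios of both populations passed 1.1-fold in 1 direction for Thbs1, Postn, Lamb2, Fbln5 and Gpc4, higher at 12 kPa (14.7% against 5.10% of all genes), and Lama2 and Lamc1, lower at 12 kPa (5.88% against 3.24%). Fbln5 had the largest and nearly equal ratios, 1.77-fold in control and 1.69-fold in Srf-knockdown NPCs, and Thbs1 was 1.40-fold higher in each. Postn, Thbs1 and Gpc4 were therefore both lower in Srf-knockdown NPCs and higher on the 12 kPa matrix, although the stiffness and knockdown ratios share libraries. For Lamb2 the ratio in control sat at the threshold (log2 ratio of 0.139, and 0.136 with a pseudocount of 1), and for Lama2 a pseudocount of 1 brought the ratio in Srf-knockdown NPCs to -0.12, inside it.

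**Figure D4:**
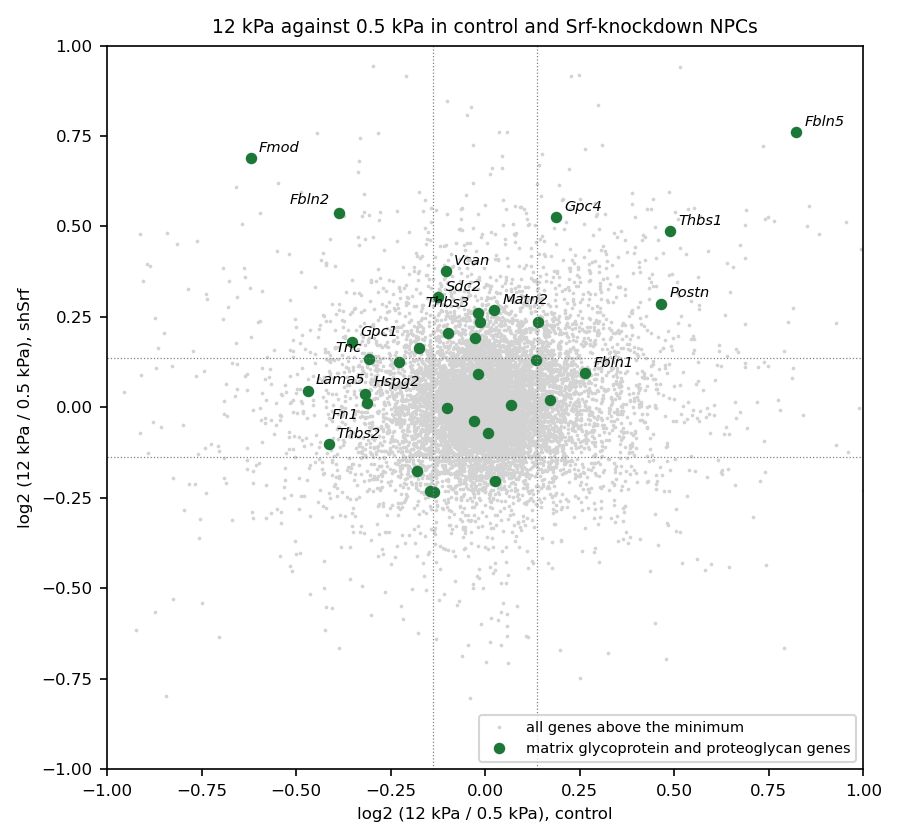
Log2 ratio of 12 to 0.5 kPa in Srf-knockdown NPCs against that in control NPCs, for the 34 matrix genes in green and all genes above the minimum in grey, with dotted lines at 1.1-fold and 31 grey genes outside the axes. Fbln5, Thbs1, Postn and Gpc4 lie on the upper right, Fmod and Fbln2 on the upper left, and more green points lie above 0 on the vertical axis than below.

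Of the 34 genes, 22 (64.7%) had a higher ratio of 12 to 0.5 kPa in Srf-knockdown than in control NPCs, against 50.8% of all genes, with a median difference of 0.23 on the log2 scale against 0.00. Fbln2, Fmod, Agrn and Gpc1 were lower at 12 kPa in control and higher in Srf-knockdown NPCs (11.8% of the members against 6.01% of all genes). Centring within bins of transcript GC content brought the ratios of Agrn and Gpc1 in Srf-knockdown NPCs to 0.12 and 0.06, inside 1.1-fold. With 1 library for each condition none of these differences between the populations could be tested.

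The other genes of the pathway were followed as lists. Of 35 other matrix glycoprotein genes, 15 were above the minimum, and at both stiffnesses Mgp, encoding an inhibitor of calcification, was past 2-fold lower and Mfap4, a microfibril protein, past 2-fold higher. Mgp had FPKM of 36.9 and 52.7 in control and 11.5 and 12.0 in Srf-knockdown NPCs, and Mfap4 had 11.7 and 10.8 against 32.6 and 34.8. Of 21 other proteoglycans and link proteins, 7 were above the minimum and 1 passed, Dcn (decorin), a relative of Bgn, with 9.22 and 8.62 in control and 26.9 and 26.2 in Srf-knockdown NPCs. Of 39 glycosaminoglycan synthesis enzymes, 28 were above the minimum and 1 passed, Hs6st2, a heparan sulphate 6-O-sulphotransferase, with 12.4 and 15.5 in control and 2.06 and 5.09 in Srf-knockdown NPCs. Of 18 cell-surface receptors for matrix glycoproteins, 14 were above the minimum and 1 passed, Bcam, a receptor for the laminin alpha 5 chain, with 5.63 and 4.30 in control and 11.6 and 11.7 in Srf-knockdown NPCs. Over all genes, 1.71% were past 2-fold lower and 1.74% past 2-fold higher at both stiffnesses. With 7 to 28 genes above the minimum in a list, 1 gene is little to set against these shares. The median log2 ratio of the receptors was -0.50 at 0.5 kPa and -0.48 at 12 kPa, and that of the enzymes -0.05 and -0.14, against 0.01 over all genes at each stiffness.

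The same lists were read for stiffness against the shares of all genes past 1.1-fold, 16.9% lower and 17.9% higher in control and 13.0% lower and 17.6% higher in Srf-knockdown NPCs. In control NPCs, 7 of the 14 receptors were lower at 12 kPa, led by Itga6 (log2 ratio of -0.42), Itgb4 (-0.41), Bcam (-0.39), Itga3 (-0.30), Itga5 (-0.23) and Itga7 (-0.18), and 2 were higher. In Srf-knockdown NPCs 2 receptors were lower, Itga8 (-0.21) and Cd44 (-0.19), and 1 was higher, Itga7 (0.19). Of the 15 other glycoprotein genes, 4 were lower and 5 higher in control, among them Mgp (0.51), Ltbp1 (-0.34), Ctgf (0.26), Ltbp4 (-0.25) and Efemp2 (0.22), and 1 was lower and 4 were higher in Srf-knockdown NPCs, among them Nov (0.33) and Ltbp4 (0.21). Of the 7 other proteoglycans, 2 were lower and 2 higher in control, Prg4 (-0.40), Cspg4 (-0.32), Aspn (0.93) and Ogn (0.64), and 1 was lower and 4 were higher in Srf-knockdown NPCs, led by Gpc2 (0.48). Of the 28 enzymes, 1 was lower and 3 were higher in control, and 1 was lower and 9 were higher in Srf-knockdown NPCs, led by Hs6st2 (1.30), Chst12 (0.27) and Dse (0.24). Several of these shares are near or below those of all genes. Past 1.1-fold in both populations were Npnt, Ctgf, Ogn, Dse and Hs6st2, higher at 12 kPa, and Ecm1 and Prg4, lower at 12 kPa.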

How the data were processed

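Per the labels, RNA of 4 libraries of N31 NPCs was sequenced, and the authors deposited FPKM for each gene. They trimmed single-end reads with cutadapt 1.9.1, mapped them to mm10 with TopHat2 2.1.0 and Bowtie2 2.2.8, kept reads of mapping quality of at least 20 and computed FPKM with Cufflinks 2.2.1 on GENCODE M14. FPKM hides read numbers and splits reads among overlapping transcripts, and no row was rescaled here. Symbols listed more than once (63) were left out. Log2 ratios used no pseudocount and genes with FPKM above 2 in all 4 libraries, with thresholds of 1.1-fold for stiffness and 2-fold at both stiffnesses for knockdown. The samples were grouped by the labelled construct and stiffness, 1 library each, so no test was run. Every member above 2 in any library was named. From the other pathway lists, at most 6 genes past a threshold were named for each list and ratio, the largest changes first, and 1 item is not reported here. Members and lists were chosen with earlier results of these data known.

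Depth was estimated from 1047 genes with FPKM under 0.1, of which 51.0% lay within 5% of whole-read steps, and from 243 single-transcript genes. Estimated reads per gene use GENCODE M1 lengths and are approximate, and counting errors follow from them. Alternatives were minima of 1 and 5, a pseudocount of 1, median, 75th percentile and GC centring, and other fold thresholds. The calculations were run on simulated data with counting error alone and the same length model. This checks the arithmetic and not how well the model describes the real libraries. Python 3.11.15, numpy 2.4.6, pandas 2.3.3 and matplotlib 3.10.9 were used. Coordinates and promoters are those of RefSeq on GRCm38.p6.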

Additional observations from a re-analysis of the deposited data

Results flagged for a closer look

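The ratio of 12 to 0.5 kPa differed in direction between the populations, past 1.1-fold in each, for Fbln2, Fmod, Agrn and Gpc1. The log2 ratio in Srf-knockdown minus that in control NPCs was 1.31 for Fmod, 0.93 for Fbln2, 0.53 for Gpc1 and 0.34 for Agrn. Each population had 1 library at each stiffness, so the difference was not tested. Fmod rested on the fewest estimated reads of the members above the minimum (225.1 in control NPCs at 12 kPa), and its counting error was 0.119 for the ratio in control. With centring within bins of transcript GC content, the ratio in Srf-knockdown NPCs was 0.12 for Agrn and 0.06 for Gpc1, inside 1.1-fold.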

How the results depend on the processing

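No paired analysis was possible because the labels give no replicates, with 1 library per condition. Counts of members past a threshold depend on the threshold. At 1.2-fold for stiffness, 8 members were lower and 4 higher at 12 kPa in control (6.72% and 7.27% of all genes), and 0 lower and 9 higher in Srf-knockdown NPCs (3.14% and 5.99%). At 1.5-fold, 1 was lower and 1 higher in control and 0 lower and 2 higher in Srf-knockdown NPCs, and at 2-fold all 4 counts were 0. For knockdown, 1.1-fold gave 16 lower and 6 higher (28.8% and 30.3% of all genes), 1.5-fold gave 10 lower and 3 higher (6.17% and 6.63%) and 4-fold gave 1 lower and 0 higher (0.200% and 0.219%). The other minima, the pseudocount, scaling and centring kept the counts within 1.5 times. Of 948 member ratios under these alternatives, 925 kept their side of the threshold, 14 moved inside it and 9 past it. The sign changed for 17 of the 948, 15 of them with GC centring, and 0 of the 17 had been past the threshold. Centring within GC bins, which had a value for 91.2% of genes, moved Gpc1 (-1.23 at 12 kPa) and Spp1 (1.04 and 1.03) past 2-fold at both stiffnesses and Thbs1 (-0.97 and -0.96) and Lama5 (0.97 at 0.5 kPa) inside it, and the cause was not tested. Lum joined the higher genes with a minimum of 1. Members at or below 2 FPKM in every library rest on few reads, at most 249.7 estimated (Lama3 in Srf-knockdown NPCs at 12 kPa). Above 2 FPKM, reads also depend on transcript length. Lama2, at FPKM of 2.28 to 3.62, had 729.2 to 1343.9 estimated reads, against 225.1 for Fmod at 5.11 in control NPCs at 12 kPa.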
